A study of Mus musculus with 9 samples.

Results

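The cytosolic ribosomal protein genes encode the proteins of the ribosome that translates nuclear mRNA. They were taken as every gene whose mouse symbol, matched by Entrez ID, is Rpl or Rps followed by a number and at most 1 letter a or x, together with Rplp0, Rplp1, Rplp2 and Rpsa. Kinases, -like copies and pseudogenes were left out. The rule found 76 genes among the 19369 genes of the series, 46 of the large (60S) and 30 of the small (40S) subunit, on 19 chromosomes, with 14 of them on chromosome 7 and 4 on the X. The rule used no measured value.

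The series compared the periocular neural crest (pNC) at E10.5, where E counts embryonic days, with the cornea at E14.5 and E16.5, with 3 biological replicates per stage and 9 samples in all. All embryos were wild-type C57BL/6 mice with no transgene or treatment named. RNA came from tissue dissected by hand and pooled across embryos, and poly(A) RNA was sequenced, so each sample is a mixture of cell types. The pNC was freed of the optic cup, lens vesicle and ectoderm during dissection, while the corneal samples held epithelium, stroma and endothelium together. In such samples fewer cells of a type and less RNA per cell cannot be told apart. Totals ran from 8745161 to 9069023 expected counts per sample, and the lowest count of any of the 76 genes in any sample was 1358, so counting error was small beside the spread between replicates.

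A ribosome holds 1 copy of nearly every ribosomal protein, and the genes are scattered over the genome without a shared operon. Their mRNAs are among the most abundant in growing cells. Many begin with a terminal oligopyrimidine tract (TOP), a cytosine followed by a run of pyrimidines at the cap, through which mTOR and Larp1 control how strongly they are translated. Because that control acts on translation, the level of a TOP mRNA is not a measure of the protein made from it.

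The start sites were read first, since the tract is the sequence feature that the family is known for. RefSeq promoter windows (GRCm38.p6, 250 bases before an annotated start to 50 after) were found for 56 of the 76 genes, in 66 windows. A cytosine at the start base followed by at least 4 C or T was found in 13 of the 66 windows, or 19.7%, against 2.51% of all 32851 windows. The windows are shown for 8 genes, each with 15 bases before that start and 15 from it, 5′ to 3′ on the strand of the gene. The tract from the start base is in capitals where there is one. The first 4 genes are the 3 that fell most from pNC to E16.5 and the 1 that was higher, and the last 4 carry long tracts.
Rps2 (chr17:24720048-24720077, + strand): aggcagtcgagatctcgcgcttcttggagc
Rpl7a (chr2:26910792-26910821, + strand): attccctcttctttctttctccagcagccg
Rpsa (chr9:120127751-120127780, + strand): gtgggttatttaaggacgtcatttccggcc
Rps27 (chr3:90213634-90213663, - strand): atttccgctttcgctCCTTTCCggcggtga
Rps6 (chr4:86857353-86857382, - strand): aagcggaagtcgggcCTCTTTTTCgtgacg
Rps18 (chr17:33955651-33955680, - strand): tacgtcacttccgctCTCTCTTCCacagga
Rps10 (chr17:27635230-27635259, - strand): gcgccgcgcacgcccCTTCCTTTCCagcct
Rpl28 (chr7:4792950-4792979, + strand): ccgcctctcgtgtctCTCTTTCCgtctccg
Of these, Rps27, Rps6, Rps18, Rps10 and Rpl28 begin with the tract, whereas Rps2, Rpl7a and Rpsa do not at the start base of their window. The base at which the window is placed decides this match. In 48 of the 66 windows the start base is the outer edge of the RefSeq gene, but that of Rps2 lies 1942 bases inside it and that of Rpl7a 122, so other start sites of these genes were not read. The element CCGGAAG, searched on both strands, was in 36.4% of the windows of these genes and in 8.86% of all windows, and TATAAA, also on both strands, in 9.09% and 13.6%. A match is a string of letters and was not tested as a binding site.

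The 76 genes took 5.11, 5.43 and 5.84% of all expected counts in the 3 pNC samples (5.46 ± 0.368, SD, n = 3). At E14.5 they took 5.16, 4.77 and 4.27% (4.73 ± 0.446, n = 3). At E16.5 they took 4.74, 4.23 and 4.17% (4.38 ± 0.311, n = 3). By this share the E16.5 samples all lay below the pNC samples, and the E14.5 samples overlapped both. FPKM, the authors' count scaled to transcript length and library total, divides each count by transcript length. Because these transcripts are short, the same genes made 16.4, 15.5 and 15.02% of the summed FPKM on average at the 3 stages. By summed FPKM the pNC and E16.5 samples overlapped, with E16.5 replicate 1 at 15.89% and pNC replicate 1 at 15.53%.

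**Figure D1:**
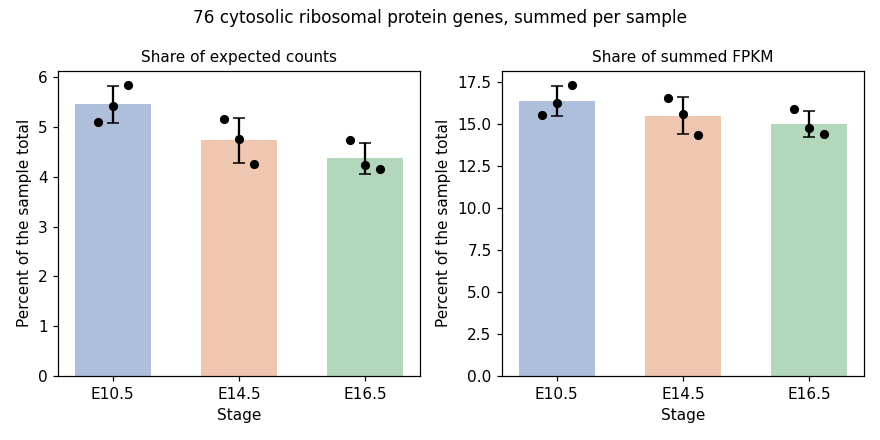
Summed share of the 76 cytosolic ribosomal protein genes in each sample, as percent of expected counts (left) and of summed FPKM (right). Points are samples, bars the stage mean and error bars the SD (n = 3). The pNC samples lie between 5.11 and 5.84% of counts and the E16.5 samples between 4.17 and 4.74%. By summed FPKM the samples of these stages overlap.

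As a set, these were among the most abundant mRNAs of the tissue. Of the 100 genes with the highest mean FPKM over the 9 samples, 59 were cytosolic ribosomal protein genes. Their own mean FPKM had a median of 901.4 and quartiles of 651 and 1136, and 65 of the 76 lay between 500 and 1500. The highest were Rpl41, which encodes the shortest ribosomal protein, at 1887, Rplp1 of the acidic stalk at 1637, Rps12 at 1601 and Rps20 at 1312. The lowest were Rps15a at 61.8, Rpl22 at 141, Rpl37 and Rpl21.

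The value of Rps15a rests on how its reads were assigned. Its reference transcript in the files is 5158 bases long, against a median of 705.5 for the 76 genes, and FPKM divides by that length. Its near-identical copies Rps15a-ps4 and Rps15a-ps6 were listed at 218 ± 7.91 and 94.8 ± 15.8 FPKM in pNC, above the 69.2 ± 5.88 (SD, n = 3) of Rps15a itself. The sum of the 3 ran from 358 to 413 FPKM in pNC, from 307 to 383 at E14.5 and from 297 to 347 at E16.5. Rpl31, Rpl34 and Rpl37 also have copies in the files (Rpl31-ps12, Rpl34-ps1 and Rpl37rt), which took 31.7, 6.55 and 26.3% of the summed FPKM of the pair in pNC. For these genes the split between gene and copy is uncertain. The strand setting of the counting is not given in the sources used here, so reads of overlapping antisense genes cannot be told apart either.

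Within a stage the family moved as a block. In pNC replicate 3, 75 of the 76 genes were above their own stage mean on the log2(FPKM + 1) scale, and in pNC replicate 1 none was. At E14.5 the genes above their stage mean numbered 72 in replicate 1, 50 in replicate 2 and 2 in replicate 3. At E16.5 they numbered 76, 3 and 1. The median deviations reached 0.13 and -0.14 log2, while the median over all genes stayed within 0.024 of 0. The spread between replicates that the tests below work against is thus largely shared by the family, and the 76 genes are not independent readings.

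**Figure D2:**
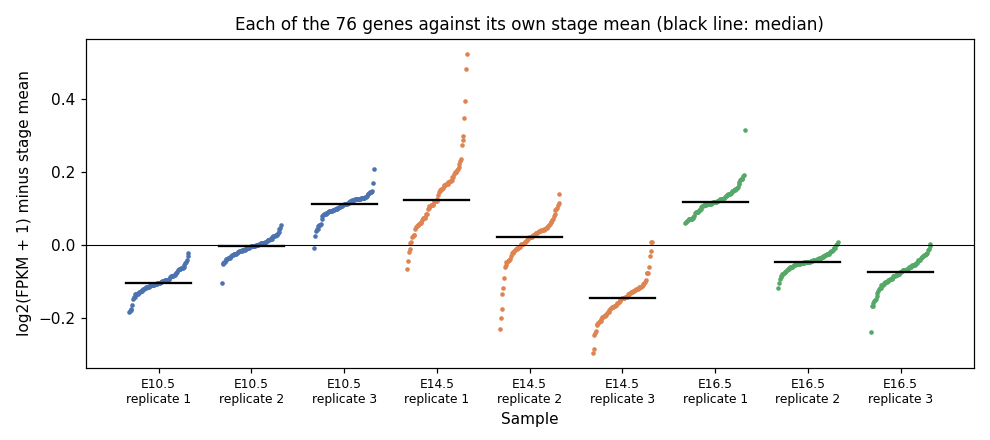
Deviation of each of the 76 genes from its own stage mean, on the log2(FPKM + 1) scale, in each sample. Points are genes sorted within a sample and black lines are medians. The genes of 1 sample lie mostly on 1 side of 0, with all 76 above it in E16.5 replicate 1, and E14.5 replicate 1 has the widest scatter.

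E14.5 replicate 1 stood apart in its scatter across the 76 genes and in its markers, but not in its median shift. The median deviation from the stage mean was 0.125 log2 in it, 0.119 in E16.5 replicate 1 and 0.1125 in pNC replicate 3. The level of E14.5 replicate 1 was 1.14 times the mean of the other E14.5 samples at the median of the 76 genes, and the ratio ran from 0.931 to 1.73. Rps21, a small-subunit protein, measured 968, 573 and 548 FPKM in the 3 samples, which gave it the largest coefficient of variation at that stage, 33.8%. The next highest ratios were those of Rpl37 (1.65), Rpl38 (1.51) and Rps29 (1.44). Rpl37 measured 343, 213 and 201 FPKM in the 3 samples, while its copy Rpl37rt went the other way, at 44.6, 153 and 120. The part of the split of reads between this gene and its copy in the ratio of Rpl37 was not tested. The ratio was higher for shorter transcripts (Spearman's rho = -0.35 across the 76 genes, a description over 1 set of libraries). Over 533 other genes of at least 100 FPKM rho was -0.24. The same sample had more corneal marker RNA than its replicates: Krt12, the keratin of the corneal epithelium, was at 102, 0.62 and 2.06 FPKM in the 3 samples, and Kera, a keratocyte proteoglycan, at 803, 83.1 and 151. The part of this difference in the results below was not tested, and values without the sample are given where they move a count.

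The makeup of the tissue changed along with the stages. The summed FPKM of 6 crest markers (among them Alx1, Six2 and Pax3) ran from 267 to 310 in pNC, from 9.14 to 34.1 at E14.5 and from 6.93 to 9.58 at E16.5. Foxd1 was at 0 in 1 of the E14.5 and 2 of the E16.5 samples and Alx1 in 1 of the E16.5 samples, and all 6 markers were lower at both later stages. The 7 keratocyte markers summed to between 178 and 286, 2746 and 6687, and 11264 and 14265 at the 3 stages, with Ptgds at 0 in all 3 pNC samples, and all 7 were higher at both later stages. The 6 epithelial markers summed to between 21.1 and 26.7, 581 and 2046, and 5190 and 7531, all 6 of them higher at both. The labels of the 3 stages thus matched their markers. Globins and other erythroid genes summed to between 5202 and 8189 in pNC and 1231 and 2666 at E16.5, with 6 of 9 lower and 1 higher. The 4 endothelial markers summed to between 62.9 and 107 in pNC and 22.3 and 32.8 at E16.5, with 3 of 4 lower. The 5 lens markers summed to between 1.70 and 4.92, 26.6 and 43.7, and 45.9 and 51.7 at the 3 stages, and the 3 that were tested were higher at both later stages. Most of that sum was Cryab, a small heat shock protein that tissues other than lens also make, while the lens crystallin Crygd did not exceed 0.36 FPKM in any sample. Muscle markers were low throughout (13.8 at most), and Myod1 and Myog were at 0 in all 6 corneal samples. The 6 optic cup and pigment epithelium markers summed to between 28.29 and 46.85, 33.4 and 84.97, and 15.06 and 15.87 at the 3 stages. Of the 4 tested, 1 was higher and 1 lower at E14.5, and 2 were lower at E16.5. The 5 leukocyte markers summed to between 24.75 and 26.49, 66.51 and 73.3, and 20.32 and 25.18, with 3 higher at E14.5 and 1 lower at E16.5. The 6 proliferation markers, Mki67 and Pcna included, summed to between 777 and 855 in pNC, 312 and 451 at E14.5 and 129 and 156 at E16.5. All 6 were lower at each later stage. The part of any of these changes in the levels of the ribosomal protein genes was not tested.

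The first comparison set pNC, dissected free of ectoderm, against the whole E14.5 cornea, which includes epithelium. From pNC to E14.5, ribosomal protein mRNAs were modestly lower or not called. With edgeR's quasi-likelihood test and Benjamini-Hochberg adjustment over 14771 genes (adjusted p under 0.05), 23 of the 76 were lower and 0 higher. The background was 27.5% of all genes tested lower and 28.9% higher, so the share lower among the 76 (30.3%) was close to the background, and the share higher was not. At an unadjusted p under 0.05, 31 were lower and 0 higher, on a background of 29.9% and 31.3%. DESeq2 called 33 lower and 0 higher, on a background of 23.6% and 23.1%. Its size factors in edgeR gave 26 lower (background 28.5%). Library totals gave 13 lower (background 26.7%), and leaving out the filter on low counts gave 16 (background 21.3%). The limma fits on log2(FPKM + 1), log2(FPKM + 0.1) and log2(FPKM + 1) over all genes gave 15, 14 and 8 (backgrounds 27.2, 26.6 and 21.4%). Whether the share lower lay above or below the background thus depended on the setting. The median log2 fold change of the 76 was -0.19, beside 0.01 for all genes tested, and lay between -0.24 and -0.12 with single samples left out (-0.12 without E14.5 replicate 3). No ribosomal protein gene also reached an absolute log2 fold change of 1, against 13.6% of all genes higher and 7.97% lower by that rule. In FPKM, 29 of the 76 had all 3 E14.5 samples below all 3 pNC samples, beside 29.6% of all genes, and 0 had them above, beside 31.4%.

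Rps2, a protein at the mRNA entry site of the small subunit, fell most. It measured 1808, 1929.8 and 1954 FPKM in pNC and 1051, 1109.7 and 1091 at E14.5. The groups were far apart relative to their spread, and the log2 fold change was -0.82 (SE 0.088, adjusted p = 2.6e-05, edgeR). Rpl7a of the large subunit fell from 1123, 1174 and 1219.7 to 894, 902 and 794 FPKM, a log2 fold change of -0.46 (SE 0.084, adjusted p = 0.00095, edgeR). Rpsa, the small-subunit protein also known as the laminin receptor precursor, fell from 941, 988 and 1004 to 798, 731 and 637 FPKM, or by 0.45 on the log2 scale (SE 0.097, adjusted p = 0.0024, edgeR). In none of these 3 genes did the pNC and E14.5 samples overlap. The genes whose estimates were highest, Rps21 at 0.13 and Rps27 at 0.12, did not pass the test.

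The 23 calls were not equally firm. Leaving out each of the 9 samples in turn gave between 11 and 38 lower calls, on backgrounds of 23.6 to 26.5%, with 38 when E14.5 replicate 1 was left out. Leaving out E10.5 replicate 3 gave 11, E14.5 replicate 3 gave 12, E10.5 replicate 2 and E16.5 replicate 3 gave 13 each, E16.5 replicate 2 gave 14 and E14.5 replicate 2 gave 15. Of the 23 genes, 8 were lower in every leave-one-out fit and in every other alternative except the scaling to the family itself. Among these were Rps2, Rps3 and Rpsa of the small subunit and Rpl7a, Rpl8, Rpl18 and Rpl27 of the large subunit.

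The second comparison spanned the whole interval, from pNC to E16.5, and shares the pNC samples with the first. Of the 76 genes, 20 were lower and 1 was higher, on a background of 34.7% of all genes lower and 35.2% higher. The share of these genes lower (26.3%) was below the background and the share higher (1.32%) far below it. The median log2 fold change was -0.14, beside 0.00 for all genes tested, and lay between -0.20 and -0.09 with single samples left out (-0.09 without E10.5 replicate 3). No gene passed both thresholds, against 19.4% of all genes higher and 15.4% lower, and the recomputed NOISeq criterion, the test named in the study's methods, also gave 0. Rps2 came closest to that criterion, with a log2 ratio of mean FPKM of -0.997 at a probability of 0.858. In FPKM, 50 of the 76 had all E16.5 samples below all pNC samples, beside 44.1% of all genes, and 0 had them above, beside 33%.

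**Figure D3:**
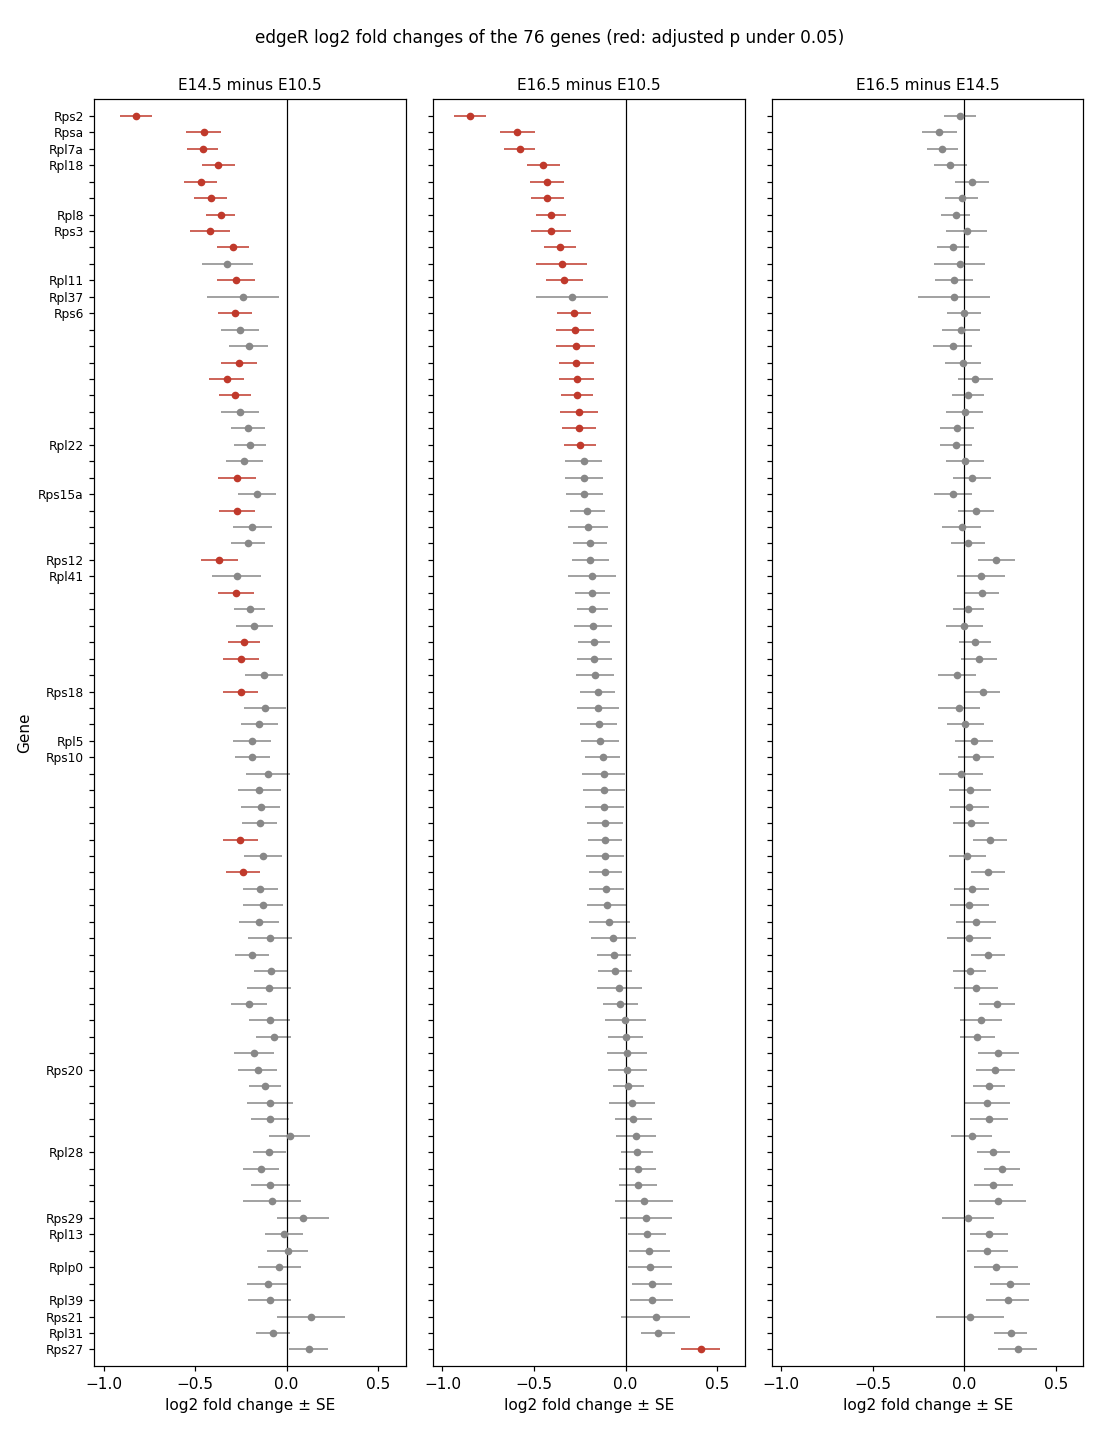
log2 fold changes with their standard errors for the 76 genes in the 3 comparisons, from edgeR over 14771 genes, sorted by the change from pNC to E16.5, with some of the genes in the text named. Red marks an adjusted p under 0.05. Rps2 stands apart at -0.82 and -0.85 in the comparisons with pNC, Rps27 is at the other end at 0.41, and no gene is red between E14.5 and E16.5.

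Rps2 measured 999, 938 and 915 FPKM in the E16.5 cornea, and its log2 fold change from pNC was -0.85 (SE 0.088, adjusted p = 8.3e-06, edgeR), close to its size at E14.5. Rpsa reached 611, 562 and 585 FPKM, or -0.59 (SE 0.097, adjusted p = 0.00025, edgeR). Rpl7a reached 740.5, 688 and 698 FPKM, or -0.58 (SE 0.084, adjusted p = 0.00011, edgeR). For all 3 genes every E16.5 sample lay below every E14.5 sample and every E14.5 sample below every pNC sample in FPKM. Of all genes tested, 38.3% had the first of these separations and 29.6% the second. In edgeR the log2 fold changes from E14.5 to E16.5 were -0.027 for Rps2, -0.14 for Rpsa and -0.12 for Rpl7a, and none of the 3 was called. Rpl18 followed at -0.45 (SE 0.091, adjusted p = 0.0011, edgeR), with 985.00, 1005 and 1134 FPKM in pNC and 723, 681 and 661 at E16.5.

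Rps27, a zinc-finger protein of the small subunit, was the only ribosomal protein gene called higher at E16.5. It measured 831, 913 and 999 FPKM in pNC, 1095, 1003 and 917 at E14.5 and 1246, 1054 and 990.3 at E16.5. The FPKM ranges of pNC and E16.5 overlapped. With TMM scaling, which corrects the count totals for composition, the log2 fold change was 0.41 (SE 0.108, adjusted p = 0.0057, edgeR). The call held without each of the 9 samples in turn, but with plain library totals the log2 fold change was 0.26 and it was not called. The FPKM scale, which follows library totals, gave 0.26 in limma and no call either.

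That dependence on scaling is shared by the family at E16.5. With scaling by library totals the median log2 fold change of all genes tested was -0.15 from pNC to E16.5 and -0.19 from E14.5 to E16.5, against 0.00 and -0.02 with TMM. The TMM factors of the E16.5 samples were 0.918 to 0.940, against 1.01 to 1.06 in the other 6. With library totals 44 of the 76 were lower at E16.5 than in pNC and 0 higher, on a background of 40.9% and 30%. The 3 limma fits on FPKM gave 32 to 42 lower, on backgrounds of 32.4 to 40.8%. Relative to the shifted median of all genes, the 76 still lay lower, at -0.29 against -0.15. Leaving out single samples gave 9 to 25 lower calls, on backgrounds of 31.9 to 36.3%, with 9 without E10.5 replicate 3 or E16.5 replicate 3, 10 without E16.5 replicate 2 and 12 without E10.5 replicate 2. Of the 20 genes, 9 were lower in every leave-one-out fit and in every alternative but the scaling to the family, among them Rps2, Rps3, Rpsa, Rpl3, Rpl7a, Rpl8, Rpl18 and Rpl27.

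The third comparison took E14.5 and E16.5, the period in which the corneal layers mature. Of the 76 genes 0 were higher and 0 lower in edgeR's quasi-likelihood test, on a background of 17.5% of all genes higher and 17.5% lower. At an unadjusted p under 0.05, 3 were higher and 0 lower, on a background of 21.9% and 23%. DESeq2 called 2 higher, Rpl31 and Rps27 (background 15.6%), and limma on log2(FPKM + 1) called 3 lower (background 30.5%). The median log2 fold change was 0.04, beside -0.02 for all genes. Its sign turned without E16.5 replicate 1 (-0.02) or E14.5 replicate 3 (-0.01), and it was 0.11 without E14.5 replicate 1 and 0.08 without E16.5 replicate 3. No gene passed both thresholds (background 6.26% higher and 5.47% lower), and 7 of the 76 had all E16.5 samples below all E14.5 samples in FPKM, beside 38.3% of all genes. Without E14.5 replicate 1, 7 genes were called higher, on a background of 21.6%: Rpl38, Rpl39, Rplp0, Rplp1, Rps20, Rps21 and Rps27. With all samples Rps27 was at 0.29 (SE 0.108, adjusted p = 0.059, edgeR) and Rpl31, at the tunnel exit, at 0.25 (SE 0.093, adjusted p = 0.055, edgeR).

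By place in the ribosome, lower calls were found in both subunits, at shares near those of all genes at E14.5 and below them at E16.5. Of all genes tested, 27.5% were lower and 28.9% higher at E14.5 than in pNC. At E16.5, 34.7% were lower and 35.2% higher than in pNC. In the large subunit 14 of 46 (30.4%) were lower at E14.5 and 14 (30.4%) at E16.5 relative to pNC, with medians of -0.20 and -0.17. In the small subunit 9 of 30 (30%) were lower at E14.5 (median -0.17), and 6 (20%) were lower and Rps27 higher at E16.5 (median -0.12). Of the 4 proteins of the P stalk, which recruits elongation factors, 0 were called at E14.5 and 1, Rpl12, was lower at E16.5, a call lost in 6 of the 9 leave-one-out fits. Of 8 proteins around the exit tunnel, 1 was lower at E14.5 and 3 at E16.5. Rpl11, which with Rpl5 and 5S RNA forms a particle that binds Mdm2, was lower at both stages, by 0.27 and 0.33 on the log2 scale, and Rpl5 was not called at either. The Rpl11 call at E14.5 held without E10.5 replicate 1 or E14.5 replicate 1 but not without any other sample, and that at E16.5 was lost without E10.5 replicate 3 or E16.5 replicate 3. Of 15 genes mutated in Diamond-Blackfan anemia, 3 were lower in the E14.5 cornea, and 3 lower and 1 higher in the E16.5 cornea. The 4 X-linked genes were not called in any of the 3 comparisons.

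To see which genes changed against the rest of the family, counts were also scaled to the summed counts of the 76 genes. On that scale the median of all genes tested was at 0.24 from pNC to E14.5 and at 0.17 from pNC to E16.5. From pNC to E14.5, Rps2 was lower (-0.60) and Rps27 (0.34) and Rps29 (0.30) were higher, on a background of 13.9% of all genes lower and 37.6% higher. Rps29 measured 822, 881 and 974 FPKM in pNC and 1208, 864 and 815 at E14.5, the highest in E14.5 replicate 1. No fit on this scale left out a sample. From pNC to E16.5, 6 were lower and 11 higher, on a background of 25.7% and 39.2%. The lower ones were Rps2 at -0.68, Rpsa at -0.42, Rpl7a at -0.41, Rpl18 at -0.28, Rpl27 at -0.26 and Rps3 at -0.24. Rps27 at 0.58 was the highest, ahead of Rpl31 at 0.35, Rplp1 and Rpl39. Between E14.5 and E16.5, edgeR called 0 on that scale in either direction, on a background of 13% of all genes higher and 15.5% lower. Rps2 was thus lower and Rps27 higher than the family average at both corneal stages, by the test.

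The narrowest range of stage means on the log2(FPKM + 1) scale was that of Rplp0 (0.02), the stalk base often used as a reference gene in PCR. Rpl13 (0.03) and Rpl17 (0.04) followed. The widest were those of Rps2 (0.996), Rpsa (0.738) and Rpl7a (0.725). The narrow range of Rplp0 hides a spread within E14.5, at 1432, 1112 and 1041 FPKM (coefficient of variation 17.5%). Without E14.5 replicate 1, Rplp0 was called higher from E14.5 to E16.5 (log2 fold change 0.32). Scaled to the family, it was called higher from pNC to E16.5 (0.30). Across the 76 genes the log2 fold change was lower for longer reference transcripts, with Spearman's rho of -0.30, -0.39 and -0.35 in the 3 comparisons. These are descriptions across genes that share their libraries, and the part of transcript length in the calls was not tested.

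Some ribosomal proteins have a second gene with its own expression pattern. The coding sequences of Rps27 and Rps27l and of Rpl39 and Rpl39l are shown because the pairs have the same coding length and moved differently. They were read from GRCm38 with the GENCODE annotation, 5′ to 3′, and capitals mark the bases at which the aligned pair differs.
Rps27 (chr3:90212725-90213615, - strand, exons of the coding sequence joined): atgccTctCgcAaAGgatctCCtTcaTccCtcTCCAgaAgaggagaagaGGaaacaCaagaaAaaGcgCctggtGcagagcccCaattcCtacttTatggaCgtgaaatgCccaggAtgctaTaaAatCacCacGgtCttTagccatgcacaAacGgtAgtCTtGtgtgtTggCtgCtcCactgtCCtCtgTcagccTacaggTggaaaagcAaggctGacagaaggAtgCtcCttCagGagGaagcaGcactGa
Rps27l (chr9:66946175-66949357, + strand, exons of the coding sequence joined): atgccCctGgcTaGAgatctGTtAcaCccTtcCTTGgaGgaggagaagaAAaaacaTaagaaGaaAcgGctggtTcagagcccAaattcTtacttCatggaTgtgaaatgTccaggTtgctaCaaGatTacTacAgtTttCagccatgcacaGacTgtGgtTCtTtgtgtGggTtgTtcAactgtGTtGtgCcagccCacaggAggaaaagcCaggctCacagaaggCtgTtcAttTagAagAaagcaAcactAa
Rpl39 (chrX:37082701-37085127, - strand, exons of the coding sequence joined): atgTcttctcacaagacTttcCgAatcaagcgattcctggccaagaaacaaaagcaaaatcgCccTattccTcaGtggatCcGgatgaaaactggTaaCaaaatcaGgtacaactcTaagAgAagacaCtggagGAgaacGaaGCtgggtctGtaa
Rpl39l (chr16:10174310-10174465, + strand, exons of the coding sequence joined): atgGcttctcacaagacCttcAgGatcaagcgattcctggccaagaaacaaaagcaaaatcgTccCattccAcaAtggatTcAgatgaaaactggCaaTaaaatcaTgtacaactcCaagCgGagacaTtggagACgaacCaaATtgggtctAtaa
Rps27 and Rps27l differ at 61 of 255 coding bases (76.1% identity), and Rpl39 and Rpl39l at 23 of 156 (85.3%).

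While Rps27 had the highest log2 fold change of the family from pNC to E16.5, its paralog Rps27l, a known p53 target, fell. Rps27l measured 152, 158 and 182 FPKM in pNC, 134, 111 and 98.6 at E14.5 and 107, 85.6 and 87.8 at E16.5. The log2 fold change from pNC was -0.54 (SE 0.123, adjusted p = 0.0037, edgeR) at E14.5 and -0.67 (SE 0.124, adjusted p = 0.00062, edgeR) at E16.5. The share of Rps27l in the FPKM of the pair was 15.2% ± 0.384 in pNC, 10.2% ± 0.604 in the E14.5 and 7.85% ± 0.319 in the E16.5 cornea (SD, n = 3), and the 3 stages did not overlap. The difference between the changes of both genes was not tested on its own.

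Rpl39 lines the exit tunnel, and Rpl39l is its paralog with an uninterrupted coding sequence, best known from testis. Rpl39 measured 888, 971 and 1049 FPKM in pNC, 1076, 895 and 792 in the E14.5 and 1065, 949 and 889 in the E16.5 cornea. It was called in none of the 3 comparisons. Rpl39l measured 0.15, 0.29 and 0.15 FPKM in pNC, from 1 or 2 counts per sample. It measured 5.11, 2.24 and 2.53 at E14.5 and 10.3, 14.6 and 8.81 at E16.5, from 61.1 to 101 counts. The stages did not overlap, and each step was called higher in edgeR's quasi-likelihood test (adjusted p = 0.00023 from pNC to E14.5 and 0.0018 from E14.5 to E16.5). Even at E16.5 Rpl39l made only 1.15% ± 0.318 (SD, n = 3) of the FPKM of the pair.

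**Figure D4:**
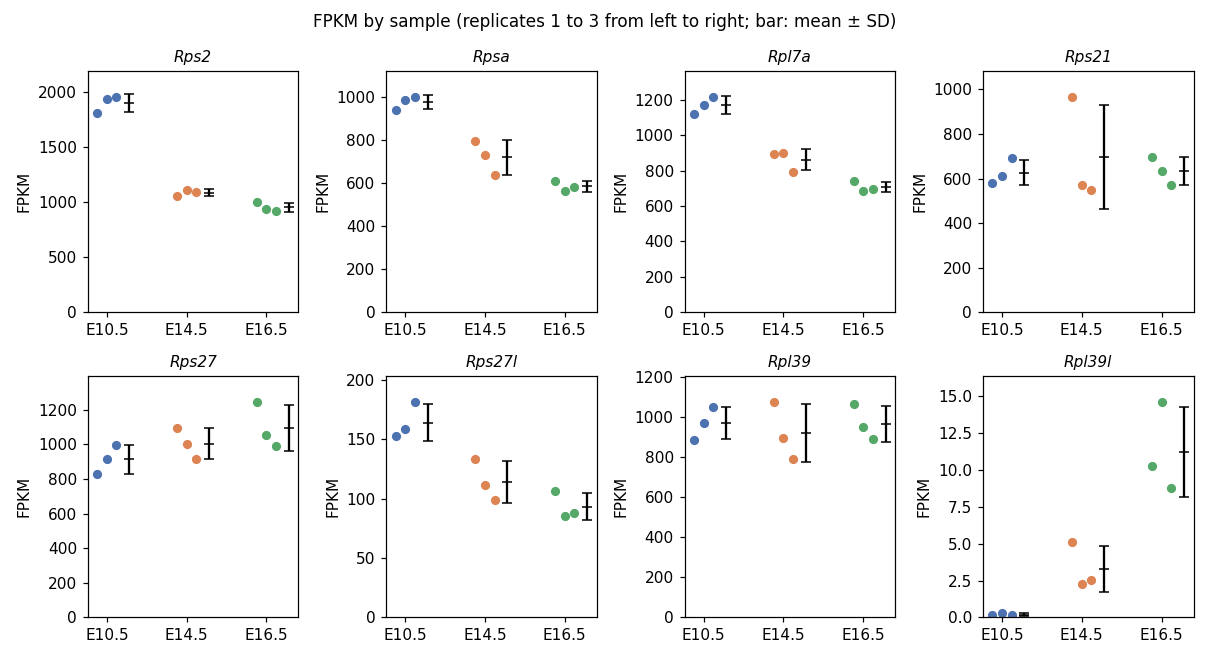
FPKM by sample for 6 ribosomal protein genes and the paralogs Rps27l and Rpl39l, with replicates 1 to 3 from left to right and the mean ± SD (n = 3) beside them. Rps2, Rpsa and Rpl7a are highest in every pNC sample, Rps27l falls while Rps27 does not, Rpl39l is near 0 in pNC, and the high Rps21 point belongs to E14.5 replicate 1.

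Rpl22l1 exceeded its canonical partner in FPKM at every stage, but not in counts. The reference lengths are 2205 bases for Rpl22, over 5 transcripts, and 477 for Rpl22l1, and in pNC the expected counts were 2999, 3262 and 3239 for Rpl22 and 927, 992 and 1010.2 for Rpl22l1. The level of one against the other thus rests on the reference lengths. Rpl22, an RNA-binding protein of the large subunit, measured 151, 163 and 167 FPKM in pNC, 148, 150.4 and 125 at E14.5, and 130.3, 116 and 119 at E16.5. It was lower at E16.5 than in pNC (-0.25, SE 0.088, adjusted p = 0.026, edgeR), a call lost without E10.5 replicate 2 or 3 or E16.5 replicate 2 or 3. Rpl22l1 measured 243 ± 12.6 FPKM in pNC, 246 ± 16.8 in the E14.5 cornea and 228 ± 9.65 in the E16.5 cornea (SD, n = 3) and was not called in any comparison. Its share of the FPKM of the pair was 60.3% ± 0.313 in pNC, 63.5% ± 1.24 in the E14.5 and 65.2% ± 0.674 in the E16.5 cornea (SD, n = 3). The pNC samples lay below all corneal samples, and the corneal stages overlapped.

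Rpl36al, the autosomal paralog of the X-linked Rpl36a, fell at both corneal stages, at -0.28 (adjusted p = 0.024, edgeR) and -0.36 (adjusted p = 0.0049, edgeR) from pNC. The first of these was lost without E10.5 replicate 2 or 3 or E14.5 replicate 2 or 3. Rpl7l1, a distant relative of Rpl7 (50.3% identity of coding bases), fell by 0.40 and 0.67 on the log2 scale. Rps4l measured 75.98, 92.01 and 62.7 FPKM on average at the 3 stages and was not called. Rpl3l, the muscle paralog of Rpl3, was at 0 in 8 of the 9 samples, and Rpl10l did not exceed 0.31 FPKM. Neither passed the filter on low counts, and Rps27rt was not analysed here.

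Genes whose products sit on the cytosolic ribosome but whose symbols fall outside the rule were also measured. Rps3a1 encodes a small-subunit protein, Fau encodes one fused to a ubiquitin-like protein, and Rack1 is a scaffold on the 40S head. Rps3a1 and Fau were not called in any comparison. Rack1 was lower at E14.5 (-0.25, SE 0.087, adjusted p = 0.030, edgeR) and at E16.5 (-0.29, SE 0.087, adjusted p = 0.012, edgeR), from 908, 949 and 978 FPKM in pNC to 729, 666 and 698 at E16.5. The first call was lost without E10.5 replicate 2 or 3 or E14.5 replicate 2 or 3, and the second without E16.5 replicate 2.

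The machinery that makes ribosomes fell much further. Of 29 ribosome biogenesis genes, 27 were lower at E14.5 and all 29 at E16.5 relative to pNC, with medians of -0.73 and -1.16, and 16 were lower at E16.5 than at E14.5. The shares of all genes tested that were lower were 27.5, 34.7 and 17.5% in the same order. Npm1, a nucleolar chaperone of ribosome assembly, measured 1081, 1075 and 1269 FPKM in pNC, 556, 661 and 559 at E14.5 and 404, 369 and 373 at E16.5. Its log2 fold change reached -1.43 (SE 0.107, adjusted p = 9.1e-07, edgeR). Ncl, or nucleolin, fell by 0.85 and then 1.26 relative to pNC, and Rrp12, a ribosome export factor, by 1.10 and 1.70. Ncl and Npm1 were lower again from E14.5 to E16.5, by 0.41 and 0.47. The difference between these genes and the ribosomal protein genes was described by counts and medians and not tested as a set.

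The 78 mitochondrial ribosomal protein genes, which serve the separate ribosome of mitochondria, lay between. Of these, 45 were lower at E14.5 and 60 at E16.5 than in pNC, with medians of -0.34 and -0.53, and 17 were lower at E16.5 than at E14.5. The shares of all genes lower were 27.5, 34.7 and 17.5% in the same order. Mrps22 fell most, with 26.8, 27.9 and 34.7 FPKM in pNC, 17.0, 17.2 and 13.9 at E14.5 and 9.15, 10.2 and 9.19 at E16.5. None of the 78 was called higher in any comparison, beside 28.9, 35.2 and 17.5% of all genes.

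**Figure D5:**
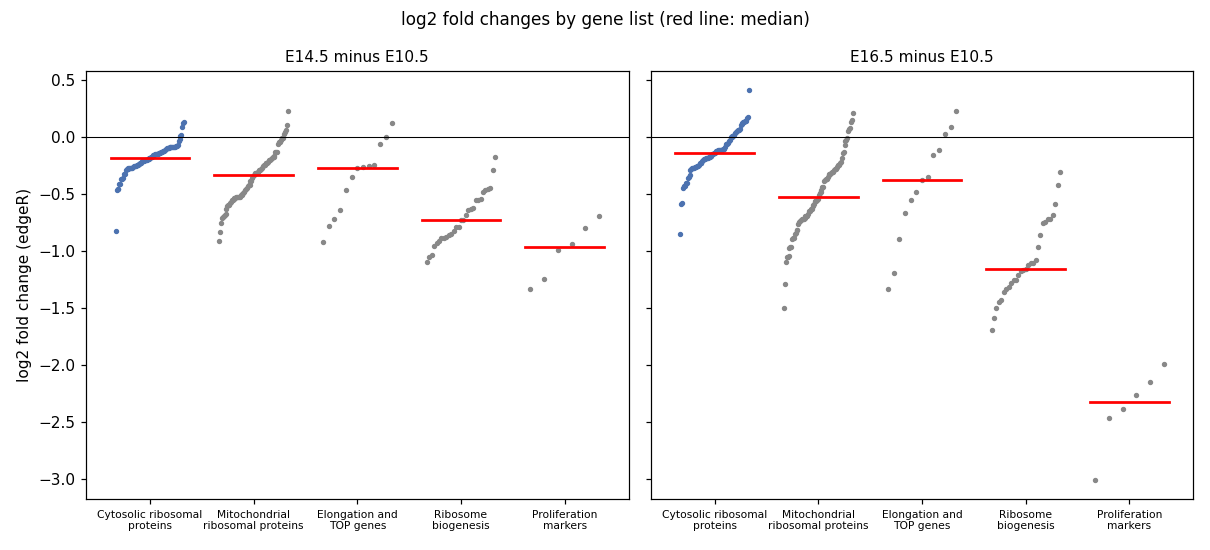
log2 fold changes from pNC (edgeR) of the tested genes of 5 lists at E14.5 (left) and E16.5 (right), with genes as points sorted within a list and the median as a red line. The medians at E16.5 are -0.14 for the cytosolic and -0.53 for the mitochondrial ribosomal protein genes, -0.38 for elongation and TOP genes, -1.16 for ribosome biogenesis and -2.33 for proliferation markers.

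Of 13 translation factors and other genes with known TOP mRNAs, 10 were lower and 0 higher at E14.5, and 8 lower and 1 higher at E16.5, with medians of -0.27 and -0.38. The background was 27.5% of all genes lower and 28.9% higher at E14.5, and 34.7% lower and 35.2% higher at E16.5. Eef1a1, which brings tRNA to the ribosome, measured 4539, 4665 and 4787 FPKM in pNC and 4465, 4143 and 4226 at E16.5 and was not called. The largest falls among them were those of Nap1l1 (-0.92 at E14.5, -1.19 at E16.5) and Hnrnpa1 (-0.64 and -1.34). Tpt1 was called higher at E16.5 (0.23, adjusted p = 0.040, edgeR), a call lost when any of the 6 samples of the comparison was left out, and with library totals, where it was at 0.08.

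Among 13 regulators, the Myc genes moved in opposite directions. Mycn measured 23.7, 23.7 and 24.96 FPKM in pNC, 8.59, 9.13 and 6.80 at E14.5 and 2.20, 1.96 and 3.42 in the E16.5 cornea, so that the log2 fold change from pNC reached -3.11 (SE 0.178, adjusted p = 2.0e-07, edgeR). Myc fell from 11.3, 11.1 and 10.2 FPKM to 5.32, 3.65 and 4.10 at E14.5 and stood at 5.43, 4.48 and 6.34 at E16.5. Mycl rose from 13.8, 14.51 and 11.6 FPKM to 34.96, 27.2 and 29.6 at E16.5 (1.35, SE 0.117, adjusted p = 2.4e-06, edgeR). Trp53, the p53 gene, fell by 1.18 by E16.5, and Larp1, Rps6kb1, Rps6kb2 and Mdm2 were not called in any comparison. Mtor was not called at E14.5 and was higher at E16.5 (0.34, adjusted p = 0.0039, edgeR), though not in the 3 limma fits. Eif4ebp1, a translation repressor under mTOR control, was lower at E14.5 (-0.51) and higher from E14.5 to E16.5 (0.45, adjusted p = 0.027, edgeR). The last call was lost with library totals, in the 3 limma fits and without E14.5 replicate 2 or 3 or E16.5 replicate 1 or 2.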

How the data were processed

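Poly(A) RNA of 9 samples (3 per stage) was sequenced by a provider. The authors aligned reads to GRCm38 with HISAT and Bowtie2 and quantified genes with RSEM (names as in the submitters' processing notes; versions are not given in the sources used here). The deposited files hold, per gene, expected counts, which RSEM estimates and need not be whole, and FPKM, which the authors scaled by transcript length and library total. Gene IDs were matched by Entrez ID to RefSeq GRCm38.p6 (19312 of 19369 matched).

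Expected counts were rounded and analysed with edgeR 4.0.16 (R 4.3.3; filterByExpr by stage, TMM, quasi-likelihood test, 1 model of stage over all 9 samples) for 14771 genes, with Benjamini-Hochberg adjustment over all of them. All 76 ribosomal protein genes passed the filter, and a call was an adjusted p under 0.05. The standard error is the absolute log2 fold change over the square root of F. DESeq2 1.42.0, limma 3.58.1 (pseudocounts 1 and 0.1), a recomputed NOISeq criterion (probability from 0.8 and log2 ratio of FPKM from 1 in size), other scalings, a replicate block and leaving out each sample were alternatives. The fit was tested on simulated counts. The gene family and all gene lists were chosen with earlier results of these data known. Genes were named by rule: those past both thresholds, the 4 largest rises and falls per comparison, the 4 highest and lowest levels, the 3 widest and narrowest ranges, all paralogs, and the extremes of each other list. Rpl8, Rpl27, Rpl31, Rpl38, Rps3, Rps21 and Rps29 and other genes listed by their calls were named after their values were seen. Some genes that the rule names are not reported here. Same-numbered samples were not paired, no 2 samples held identical values, and replicates differed by more than counting error (chi-square per degree of freedom 2.93 to 26.3).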

Additional observations from a re-analysis of the deposited data

How the results depend on the processing

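Of the values of single genes named by rule, 2040 under alternatives kept their side of the threshold, 71 lost and 49 gained a call, and no called value changed sign. Of the 2040, 128 changed sign, all of them values not called in either fit. From pNC to E14.5, 23 lower calls became 13 with library totals (background 26.7%). They became 15, 14 and 8 with limma on log2(FPKM + 1), log2(FPKM + 0.1) and log2(FPKM + 1) over all genes (backgrounds 27.2, 26.6 and 21.4%). Scaling to the family gave 1 lower, 2 higher and a median of 0.0343, on a background of 13.9% lower and 37.6% higher. Leaving out single samples gave 11 to 38 lower, on backgrounds of 23.6 to 26.5%. From pNC to E16.5, 20 lower calls became 44 with library totals (background 40.9%). They became 42, 41 and 32 with the same limma settings (backgrounds 40.8, 40.8 and 32.4%). In all 4 fits 0 were higher and the median was -0.29. Scaling to the family gave 6 lower and 11 higher (median 0.0247), on a background of 25.7% lower and 39.2% higher. Leaving out single samples gave 9 to 25 lower, on backgrounds of 31.9 to 36.3%. From E14.5 to E16.5, 2 were higher with DESeq2 and with its size factors in edgeR (backgrounds 15.6 and 18.1%). With library totals 2 were lower (background 31.1%), and with limma at pseudocounts 1 and 0.1 3 were lower (backgrounds 30.5 and 30.6%). The median turned from 0.04 to -0.13 with library totals and -0.12 in the 3 limma fits. Leaving out single samples gave 0 to 7 higher, on backgrounds of 11.6 to 21.6%. Library totals and FPKM also moved the median of all genes in the comparisons with E16.5 but hardly from pNC to E14.5, and the cause of these differences was not tested. The mean share was 16.4, 15.5 and 15.02% of summed FPKM, and 4.80% of counts at E16.5 without the 10 most abundant other genes; leaving out single samples kept it at 5.27 to 5.64, 4.52 to 4.96 and 4.201 to 4.49%. A block for the replicate number gave 12 lower genes in each comparison with pNC, on backgrounds of 26.3 and 33.9%. Between E14.5 and E16.5 it called 0, on a background of 16.3% higher and 15.9% lower. Of the calls of genes named by rule, those of Rack1 at E14.5, Rpl22 and Tpt1 at E16.5 and Nap1l1 between E14.5 and E16.5 were lost under the block. Deviations of same-numbered samples correlated from -0.278 to 0.235 (9 pairs) and of others from -0.185 to 0.173 (18 pairs), so the numbers pair no samples. With counts of 1358 or more for every ribosomal protein gene, how far depth limits the tests was not tested.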
